A study of Homo sapiens with 19 samples.

Results

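MBNL, PTBP, CELF and QKI proteins bind RNA and decide which exons a cell keeps. The 9 genes MBNL1, MBNL2, MBNL3, PTBP1, PTBP2, PTBP3, CELF1, CELF2 and QKI were taken by name from the 22760 genes with spliced reads, and 179 of their annotated introns had reads, of 247202 in all. The series depleted RBFOX2, another splicing regulator, and counted reads across splice junctions in 19 libraries. Those libraries came from ribosomal RNA-depleted RNA with ERCC spike-ins, per the labels. The members were followed as reads per gene and as inclusion of their own regulated exons, by knockdown, time, cell line and A375 fraction.

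HUES66 is a human embryonic stem cell line. Its 14 treated libraries all received 1 µg/ml doxycycline, controls included, for 24, 48 or 96 hr. Of these, 3 were controls (genotype given as WT) and 3 had RBFOX2 depleted as a whole (total KD). A further 4 carried the knockdown named N-short (N-short KD) and 4 the one named N-long (N-long KD), both named for RBFOX2 isoforms. Cas13d, the tool named in the title of the series, is a nuclease that a guide directs to a matching RNA. Guide sequences, the promoter that drives Cas13d and clone numbers were not given in the sources used here. Libraries fell into 4 sets: 24 hr replicate 1, which has no library titled control, 24 hr replicate 2, which has no total KD, 48 hr, and 96 hr. A control can be set beside total KD in 2 sets and beside N-short or N-long KD in 3. N-short and N-long KD occur together in all 4. One HUES66 wild-type library, 1 HEK293 wild-type library (an embryonic kidney line) and 3 A375 libraries (a melanoma line, total, nuclear and cytoplasmic RNA) completed the series. No doxycycline dose is recorded for any of them. In its description, HUES66 wild type bears the controls' name and belongs to the library series of 24 hr replicate 1. Its role was not settled, and it entered the fits as an alternative only.

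The treated libraries held 9622841 to 14625040 junction reads and all 19 held 6499183 to 27937149. Normalised CPM are reads on annotated junctions per 1000000 such reads, scaled by TMM over the 14 treated libraries. RBFOX2 itself was at 126 to 134 normalised CPM in controls, 50.7 to 81.8 in total KD, 114 to 124 in N-short KD and 77.9 to 90.7 in N-long KD. In edgeR's quasi-likelihood test its log2 change was -0.82 in total KD (adjusted p 1.12e-08, SE 0.080) and -0.57 with the N-long knockdown (adjusted p 3.43e-05, SE 0.071). N-short KD left it at -0.06 (adjusted p 0.998, SE 0.069), so RBFOX2 gene reads do not check the label of that knockdown. All 6 stem cell markers were above 1 CPM in every HUES66 library and summed to 3612 to 5578 CPM in the treated ones, against 55.7 CPM in A375 and 94.7 CPM in HEK293. Of 6 melanocyte lineage markers, 2 reached 1 CPM in A375, with a sum of 149.5 CPM against 38.7 to 75.7 CPM and 1 to 3 such markers in treated HUES66. The labels do not say whether libraries came from separate cultures, so p-values measure only the spread between these libraries. In bulk RNA, a lower level cannot be told apart from fewer cells that carry the transcript.

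MBNL proteins bind YGCY-type sites and are best known for switching fetal to adult splicing in muscle and for being trapped by repeat RNA in myotonic dystrophy. PTBP1 is a widespread repressor of neuronal exons, PTBP2 its neuronal paralog and PTBP3 a paralog of wider range. CELF1 and CELF2 bind GU-rich RNA, and CELF1 opposes MBNL1 on shared exons. QKI binds ACUAA-type sites and is best known from myelinating glia. These genes also splice their own transcripts. PTBP proteins promote skipping of a short exon whose loss shifts the reading frame and marks the RNA for decay, and MBNL proteins repress an exon of MBNL1 and MBNL2 that helps carry the protein into the nucleus.

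MBNL1 lies on chromosome 3 from 152243828 to 152465780 on the plus strand (GRCh38, GENCODE 29, ENSG00000152601.17). MBNL2 lies on chromosome 13 from 97221434 to 97394120 (plus, ENSG00000139793.18) and MBNL3 on chromosome X from 132369317 to 132489968 (minus, ENSG00000076770.14). PTBP1 spans chromosome 19 from 797075 to 812327 (plus, ENSG00000011304.19), PTBP2 chromosome 1 from 96721665 to 96823738 (plus, ENSG00000117569.18) and PTBP3 chromosome 9 from 112217716 to 112333667 (minus, ENSG00000119314.15). CELF1 spans chromosome 11 from 47465933 to 47565569 (minus, ENSG00000149187.18), CELF2 chromosome 10 from 10798397 to 11336675 (plus, ENSG00000048740.18) and QKI chromosome 6 from 163414000 to 163578596 (plus, ENSG00000112531.16).

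The exons below are shown because most of the results turn on them, and because paralogs share related copies of most of them. Each was read from the GENCODE 29 transcripts (GRCh38) in the sense of the RNA, 5′ to 3′. In the first 8, capitals mark the positions at which the members shown differ. In the last, capitals mark the part that the shorter form of the exon leaves out.
MBNL1 54 nt exon, chr3:152446704-152446757: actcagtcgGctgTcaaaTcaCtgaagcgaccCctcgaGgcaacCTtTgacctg
MBNL2 54 nt exon, chr13:97356796-97356849: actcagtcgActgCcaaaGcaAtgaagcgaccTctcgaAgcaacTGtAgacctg
MBNL1 36 nt exon, chr3:152455542-152455577: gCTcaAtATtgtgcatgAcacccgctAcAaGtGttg
MBNL2 36 nt exon, chr13:97365136-97365171: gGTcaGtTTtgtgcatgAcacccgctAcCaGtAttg
MBNL3 36 nt exon, chrX:132384663-132384698, minus strand: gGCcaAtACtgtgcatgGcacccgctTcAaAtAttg
PTBP1 34 nt exon, chr19:807869-807902: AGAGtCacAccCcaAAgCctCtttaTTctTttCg
PTBP2 34 nt exon, chr1:96806419-96806452: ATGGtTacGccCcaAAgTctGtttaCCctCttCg
PTBP3 34 nt exon, chr9:112231380-112231413, minus strand: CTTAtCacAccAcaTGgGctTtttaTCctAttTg
PTBP1 78 nt exon, chr19:805492-805569: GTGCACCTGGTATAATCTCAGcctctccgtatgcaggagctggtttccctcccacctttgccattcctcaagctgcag

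The MBNL1 and MBNL2 54 nt exons were identical at 45 of 54 positions (83.3%). Among the 36 nt exons, MBNL1 and MBNL2 matched at 31 of 36 positions, MBNL1 and MBNL3 at 29, and MBNL2 and MBNL3 at 28. The PTBP1 and PTBP2 34 nt exons matched at 25 of 34 positions (73.5%) and the PTBP3 exon at 22 and 21 of 34. The MBNL, PTBP1 and PTBP2 exons shown are coding in the annotation. RBFOX proteins recognise GCATG in RNA, and this word was searched on both strands of the exons shown. It occurred once, on the RNA strand, in each of the 3 MBNL 36 nt exons and in none of the other exons shown. Those 3 exons are related copies, so they are not independent occurrences. Introns beside the exons were not searched, so exons without the word may still have an RBFOX site nearby. Of 649 annotated internal exons of 36 nt, 14 (2.16%) hold the word on the RNA strand and 10 (1.54%) on the other strand.

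The first question was how much of each regulator the 3 cell lines carry. To compare genes, levels were taken as CPM per junction over the junctions each gene uses most. PTBP1 led in the 3 HUES66 controls at 37.0 to 44.3, followed by QKI at 24.3 to 28.0, PTBP3 at 14.03 to 15.4, CELF1 at 11.2 to 12.3 and PTBP2 at 8.56 to 10.2. CELF2 at 1.15 to 2.00 and MBNL1 at 0.933 to 1.22 overlapped, and MBNL3 at 0.239 to 0.515 and MBNL2 at 0.0892 to 0.130 came last. HUES66 wild type gave the same order, with CELF2 at 1.93 (exact 95% Poisson interval 1.79 to 2.07) separate from MBNL1 at 1.21 (1.09 to 1.34). In A375 the order was PTBP1 at 24.6, QKI at 14.5, MBNL1 at 11.2 and CELF1 at 9.06, with PTBP3 at 6.21 (5.77 to 6.68) and MBNL2 at 6.07 (5.48 to 6.71) not separable. In HEK293, QKI at 28.6 (27.3 to 30.0) and PTBP1 at 28.6 (27.7 to 29.5) were not separable, and MBNL1 came after PTBP3 and CELF1 at 4.30. These intervals cover counting error only.

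**Figure D1:**
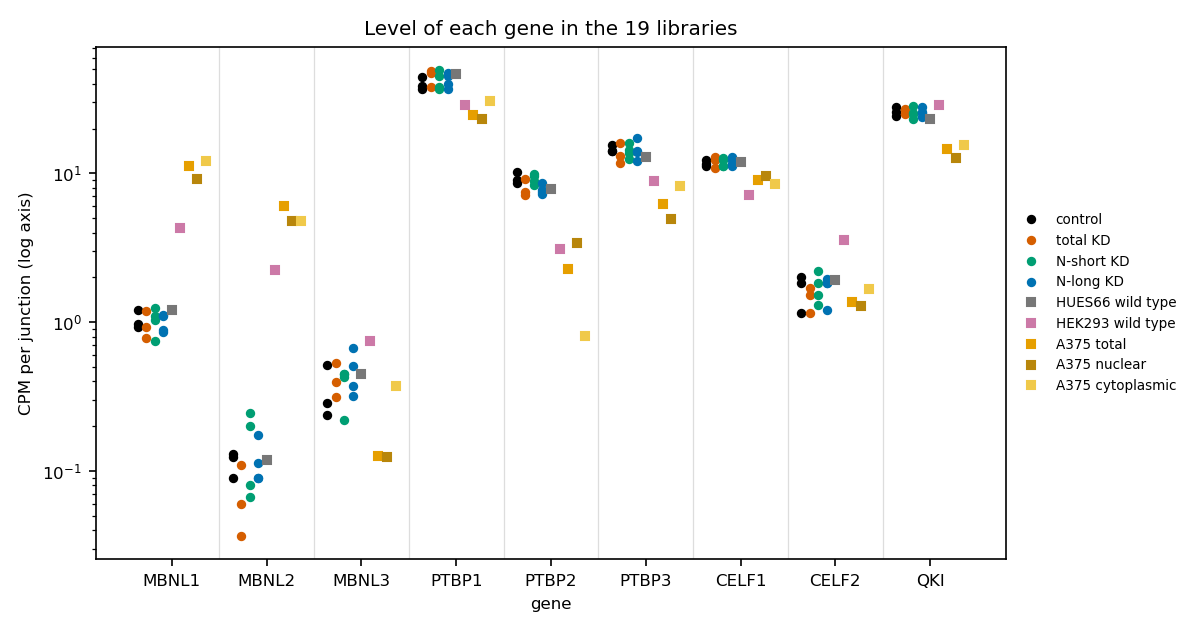
Levels of the 9 genes in CPM per junction (log axis) in each of the 19 libraries, with treated HUES66 libraries as circles and the other libraries as squares. MBNL1 and MBNL2 stand higher in A375 and HEK293 than in every HUES66 library, and PTBP2 stands lower.

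Among the 9 genes, MBNL1 and MBNL2 separated A375 from HUES66 most. MBNL1 was at 141 CPM in A375 (133 to 149), 53.5 in HEK293 (48.8 to 58.5) and 14.8 in HUES66 wild type (13.4 to 16.4), so A375 was 9.51-fold above HUES66 (exact interval of the ratio 8.47 to 10.7). MBNL2 was at 49.1 CPM in A375, 19.1 in HEK293 and 1.17 in HUES66 wild type (31 reads), a ratio of A375 to HUES66 of 41.8 (28.96 to 62.4). MBNL3 went the other way, at 1.14 CPM in A375 (9 reads), 6.12 in HEK293 and 3.71 in HUES66. The 14 treated HUES66 libraries ranged from 8.999 to 15.3 normalised CPM for MBNL1, 0.364 to 2.32 for MBNL2 and 1.72 to 5.66 for MBNL3.

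The PTBP genes were all higher in HUES66. PTBP2 was at 111 CPM in HUES66 wild type (107 to 115), 44.3 in HEK293 (40.0 to 48.8) and 33.3 in A375 (29.4 to 37.6), and A375 held 0.300 of the HUES66 level (0.264 to 0.341). PTBP1 was at 697.5 CPM in HUES66, 432 in HEK293 and 369.8 in A375, and PTBP3 at 194, 134 and 93.9 in the same order. CELF1 was at 216 CPM in HUES66, 132 in HEK293 and 170 in A375. Among HEK293, HUES66 wild type and A375 total RNA, CELF2 and QKI were highest in HEK293, at 54.2 and 209 CPM, and lowest in A375, at 20.7 and 106 CPM. QKI was 1.25-fold higher in HEK293 than in HUES66, and 1.06-fold with TMM scaling.

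At a 2-fold limit, 5 of 9 members differed between A375 and HUES66 wild type (MBNL1 and MBNL2 higher, MBNL3, PTBP2 and PTBP3 lower), where 45.1% of all genes did. With CPM scaled by TMM over the 19 libraries it was 6 of 9, with PTBP1 added at 0.490 of the HUES66 level. Between HEK293 and HUES66 it was 3 of 9 (MBNL1 and MBNL2 higher, PTBP2 lower) against 40.1% of genes. A375 and HEK293 differed at 4 of 9 (MBNL1 and MBNL2 higher in A375, MBNL3 and CELF2 lower) against 38.1% of genes. Each line was 1 library, so these ratios have no replicate check. The median log2 ratio of A375 to HUES66 was -0.66 over the 9 members and 0.0032 over all genes.

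The next question was whether depleting RBFOX2 moved these regulators. In total KD, 1 of 9 members passed at an adjusted p under 0.05 (edgeR's quasi-likelihood test with Benjamini-Hochberg adjustment over 13628 genes), where 2.2% of genes did, and 2 of 9 had an unadjusted p under 0.05. The member that passed was PTBP2. Its normalised CPM was 130 in the control of 24 hr replicate 2, 119 at 48 hr and 148 at 96 hr. The total KD libraries stood at 101 in 24 hr replicate 1, 104.8 at 48 hr and 133 at 96 hr. Total KD was lower than control within both sets that hold the pair, but the ranges over sets overlapped. The fitted log2 change was -0.21 (SE 0.052, adjusted p 0.0204), and the within-set difference was -0.17 ± 0.016 (SD, n = 2 sets).

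N-long KD put PTBP2 at 111, 109, 102 and 124 normalised CPM in 24 hr replicate 1, 24 hr replicate 2, 48 hr and 96 hr. In N-short KD it was at 119, 127, 131 and 142. N-long KD was below control in 3 of 3 sets, by -0.24 ± 0.023 (SD, n = 3 sets, log2), and below N-short KD in 4 of 4 sets, by -0.22 ± 0.11 (SD, n = 4 sets). Neither passed: the fitted log2 change was -0.21 against control (SE 0.047, adjusted p 0.150) and -0.22 against N-short KD (SE 0.043, adjusted p 0.0591). N-short KD stood at 0.0042 against control (SE 0.047, adjusted p 0.998). With no filter on low counts, edgeR's adjusted p for PTBP2 was 0.0224 for N-long KD against control and 0.00456 for N-long against N-short KD.

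The PTBP2 call in total KD rested on few libraries. The adjusted p rose to 0.068 without total KD of 24 hr replicate 1, 0.084 without the control of 24 hr replicate 2, 0.111 without total KD at 48 hr and 0.145 without the control at 96 hr, and 10 of 14 such fits kept it under 0.05. With a term for time point alone, in place of the library set that serves as the replicate block, it was 0.172 at a log2 change of -0.24. With HUES66 wild type as a further control it was 0.0263, at a log2 change of -0.17.

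For the 8 other members, total KD log2 changes ran from -0.25 for CELF2 (SE 0.106, adjusted p 0.266) to 0.15 for MBNL3 (SE 0.24, adjusted p 0.863). PTBP1 was at 0.045 (SE 0.033), PTBP3 at -0.057 (SE 0.042), CELF1 at -0.024 (SE 0.041) and QKI at 0.074 (SE 0.042). MBNL1 was at -0.22 (SE 0.12), and MBNL2 at -0.0015 (SE 0.25), where about 1 CPM of reads limits the precision. N-short KD called 0 of 9 members (0% of genes), N-long KD 0 of 9 (0.022% of genes) and N-long against N-short KD 0 of 9 (0.0147% of genes). At an unadjusted p under 0.05 each of these 3 comparisons had 1 member, and DESeq2 called 0 in each. The comparisons with control share the control libraries.

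**Figure D2:**
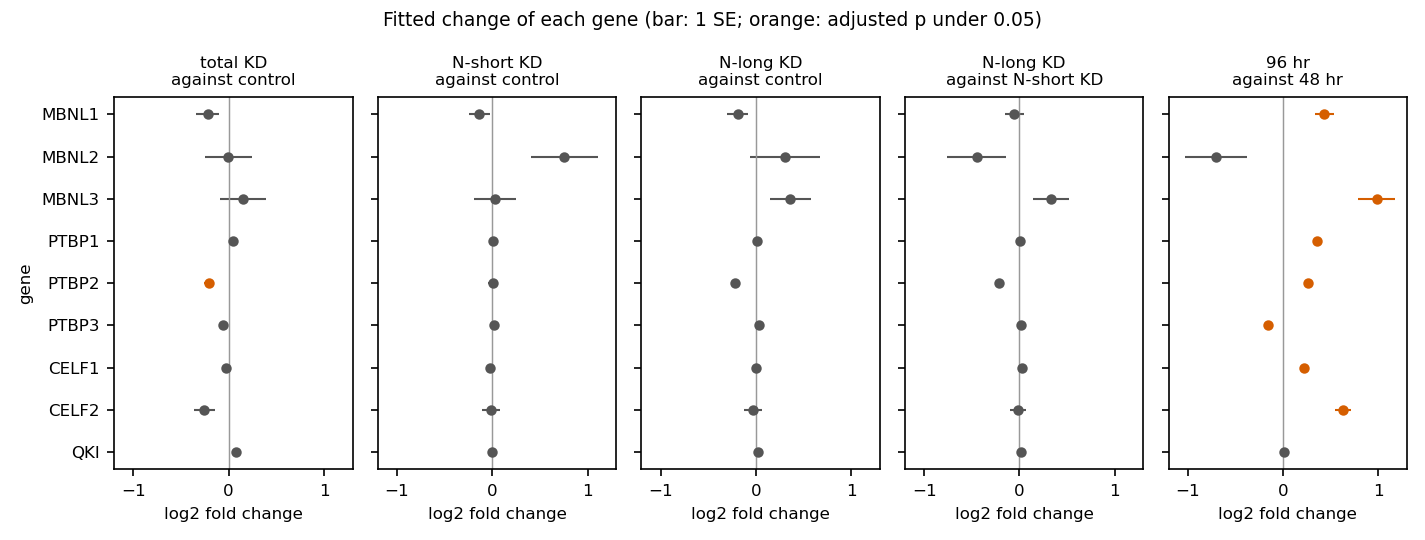
Fitted log2 fold changes of the 9 genes (points) with 1 SE (bars) in 5 comparisons, orange where the adjusted p was under 0.05. PTBP2 is the sole orange point among the knockdown comparisons, at -0.21 in total KD, and 7 genes are orange between 96 hr and 48 hr.

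Among the members' own exons, 12 of 40 annotated cassette exons passed the limits on reads and on pooled inclusion, in PTBP1, PTBP2, PTBP3, CELF1, CELF2 and QKI. None of the MBNL exons passed both. Total KD called 2 of 12 (1.3% of all exons tested), and both calls describe the same event. They are the PTBP1 78 nt exon (chromosome 19, 805492 to 805569) and its 57 nt form (805513 to 805569), which share the skipping reads and the downstream inclusion junction. The junction of the 57 nt form alone had 0 to 16 reads per treated library, so its call rests on the reads it shares with the 78 nt form. This exon lies in the linker between RNA recognition motifs of PTBP1, and PTBP1 isoforms are defined by it. N-short KD called 0 of 12 (0.0153% of exons, 2 at an unadjusted p under 0.05), N-long KD 0 of 12 (0.49%, 3 unadjusted) and N-long against N-short KD 0 of 12 (0.368%, 0 unadjusted), all by edgeR, and limma called 0 in each.

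The reads leaving the upstream splice site of that exon (805188) divide into the 78 nt form, the 57 nt form and skipping. Skipping took 20.9% of them in the control of 24 hr replicate 2 (85 of 407 reads, Wilson interval 17.2 to 25.1), 18.8% at 48 hr (82 of 436) and 13.7% at 96 hr (79 of 576). Total KD gave 21.3% in 24 hr replicate 1 (162 of 759), 26.8% at 48 hr (132 of 493) and 24.0% at 96 hr (114 of 476). Every total KD library was above every control, although the lowest total KD and highest control values lay within each other's intervals. HUES66 wild type, which shares the library series of 24 hr replicate 1, was at 19.2% (270 of 1406, 17.2 to 21.4). Within sets, skipping was higher in total KD by 9.10 ± 1.60 points (SD, n = 2 sets).

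In N-short KD, skipping was 18.8%, 25.4%, 24.4% and 20.3% in 24 hr replicate 1, 24 hr replicate 2, 48 hr and 96 hr, and in N-long KD 20.0%, 21.3%, 23.4% and 22.8%. Both ranges overlapped the controls. Within sets the difference from control was 5.57 ± 1.06 points for N-short KD (SD, n = 3) and 4.71 ± 4.36 for N-long KD (SD, n = 3), and all 3 sets were higher in each case. The 57 nt form held 0 to 2.36% of the reads in the 14 treated libraries, with 1.04% ± 0.16 in control (SD, n = 3) and 1.46% ± 0.57 in total KD (SD, n = 3).

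In edgeR's test the log2 odds of inclusion of the 78 nt exon fell by 0.69 in total KD (SE 0.135, adjusted p 0.00182). With the N-long knockdown they stood at -0.49 (adjusted p 0.0756, SE 0.126) and with the N-short one at -0.47 (adjusted p 0.9995, SE 0.128). N-long against N-short KD was at -0.015 (SE 0.108, adjusted p 0.9996), and total KD was not tested against either. As choices at the upstream splice site, 2 of 21 tested in the members passed in total KD (0.828% of all choices tested), and both belong to this exon. Skipping rose by a log2 odds of 0.71 (SE 0.156, adjusted p 0.00108) and use of the 78 nt form fell by 0.72 (SE 0.153, adjusted p 0.000689).

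This PTBP1 result depended on the 96 hr control. Without that library the adjusted p for the 78 nt exon was 0.1701, at a log2 odds of -0.50. With time point alone in place of the replicate block it was 0.0923 at -0.57, and with limma 0.479 at -0.68. With HUES66 wild type as a further control it was 0.0219 at -0.47. In the authors' deposited tables, inclusion of the 78 nt exon was lower in total KD by 0.026 at 24 hr, 0.085 at 48 hr and 0.099 at 96 hr, with the authors' adjusted p at 1.0, 0.767 and 0.476. For the other knockdowns, named g3 and g5 there, it was lower at 96 hr by 0.079 and 0.096 (authors' adjusted p 0.850 and 0.569). No choice in the members passed in N-short KD (0.0176% of choices, 4 of 21 at an unadjusted p under 0.05), N-long KD (0.353%, 2 of 21) or N-long against N-short KD (0.256%, 0 of 21), all by edgeR, and limma called 0 in each.

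**Figure D3:**
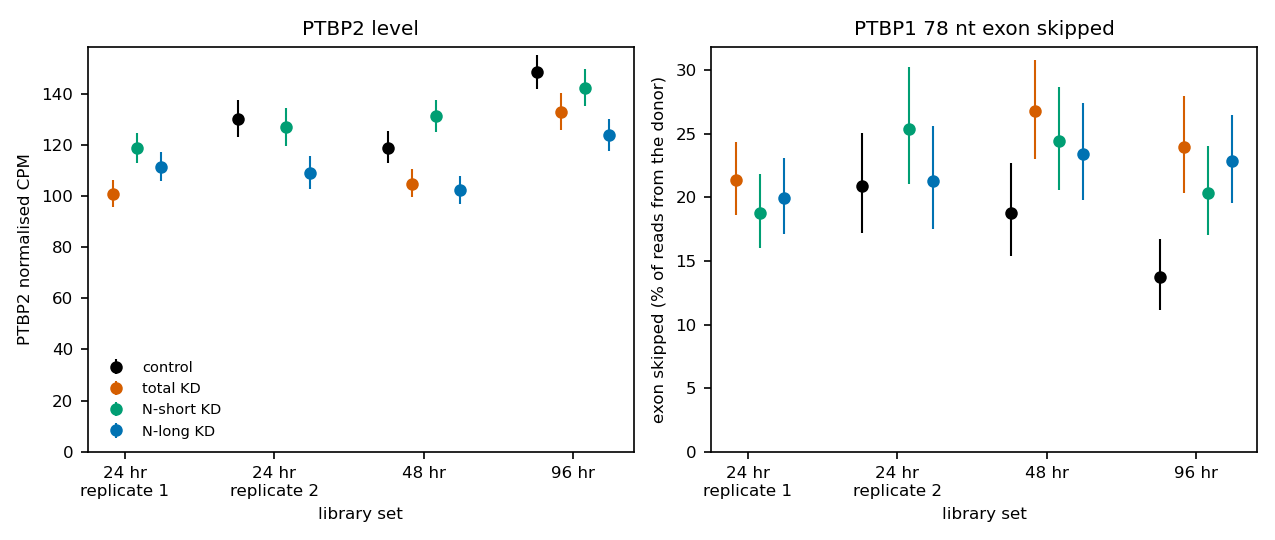
Left, PTBP2 normalised CPM by library set; right, the share of reads from the upstream splice site that skip the PTBP1 78 nt exon, both with 95% counting intervals as bars. N-long KD lies below control and N-short KD for PTBP2 in each set that holds them, and controls run from 20.9% down to 13.7% for PTBP1 skipping against 21.3% to 26.8% in total KD.

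The 34 nt exons decide whether PTBP transcripts keep their reading frame. Transcripts that skip them are marked for decay, so inclusion describes the RNA present and may understate how often they were skipped. The PTBP1 exon was in nearly all of the RNA counted, at 99.1% to 100% in the treated libraries, 99.8% in HUES66 wild type, 99.1% in A375 and 96.3% in HEK293. Inclusion of the PTBP2 exon varied far more. In the controls it was 76.9% in 24 hr replicate 2 (40 of 52 reads), 67.3% at 48 hr (37 of 55) and 80% at 96 hr (76 of 95), and in total KD 70.3% in 24 hr replicate 1, 66.2% at 48 hr and 81.4% at 96 hr. N-short KD ranged from 63.2% to 89.55% and N-long KD from 62.3% to 76.1%. All 4 groups overlapped.

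No knockdown passed for the PTBP2 exon: its log2 odds stood at -0.33 in total KD (adjusted p 0.936, SE 0.365). The N-short knockdown gave 0.22 (adjusted p 0.9995, SE 0.358) and the N-long one -0.43 (adjusted p 0.994, SE 0.337). HUES66 wild type kept the exon in 80.2% of 131 reads (72.5 to 86.1). HEK293 kept it in 7 of 15 reads (46.7%, 24.8 to 69.9) and A375 total RNA in 1 of 13 (7.69%, 1.37 to 33.3), where A375 cytoplasmic RNA had 9 of 17 and nuclear RNA 5 of 11. Both A375 fractions, at 45.5% in the nucleus and 52.9% in the cytoplasm, were near HEK293, so a lower inclusion in A375 rests on those 13 reads. The PTBP2 level was lower in A375 total RNA than in HEK293 or HUES66 wild type, and a link between level and inclusion was not tested. The PTBP3 exon had 3483 and 3428 reads on its inclusion junctions in the 19 libraries and 1 read on an unannotated skipping junction.

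The MBNL 54 nt exon, which carries part of a nuclear localisation signal, was fully included in the stem cells. MBNL1 had 172 inclusion and 0 skipping reads in the 15 HUES66 libraries together, which allows skipping of up to 1.74%. HEK293 included it in 24 of 30 reads (80%, 62.7 to 90.5), and A375 in 21 of 53 (39.6%, 27.6 to 53.1). The order of the lines was the reverse of their MBNL1 level, a description over 3 libraries. MBNL2 went the same way at lower depth, with 19 inclusion and 0 skipping reads in HUES66, which allows up to 15.8%, 6 of 19 reads in HEK293 (31.6%) and 1 of 49 in A375 (2.04%). Knockdowns could not be compared at this exon, because no HUES66 library had a skipping read. Reads on its 2 inclusion junctions were unequal: by the smaller of them MBNL1 inclusion was 28.9% in A375 and 75.0% in HEK293.

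Counts of the 95 nt exons followed the same order. MBNL1 included its 95 nt exon (chromosome 3, 152456267 to 152456361) in 22 of 22 reads in HUES66 wild type, 41 of 45 in HEK293 (91.1%) and 91 of 102 in A375 (89.2%), the latter pair within each other's intervals. The MBNL1 skipping junction (152455578 to 152459270) starts at the end of the MBNL1 36 nt exon. Skipping was therefore counted only in transcripts that include the 36 nt exon. The downstream inclusion junction can also take reads from transcripts without it. These MBNL1 values therefore depend on use of the 36 nt exon, and their order does not compare the 95 nt exon alone. MBNL2 included its own 95 nt exon (chromosome 13, 97366459 to 97366553) in 3 of 3 reads, 16 of 19 (84.2%) and 23 of 56 (41.1%, 29.2 to 54.1).

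**Figure D4:**
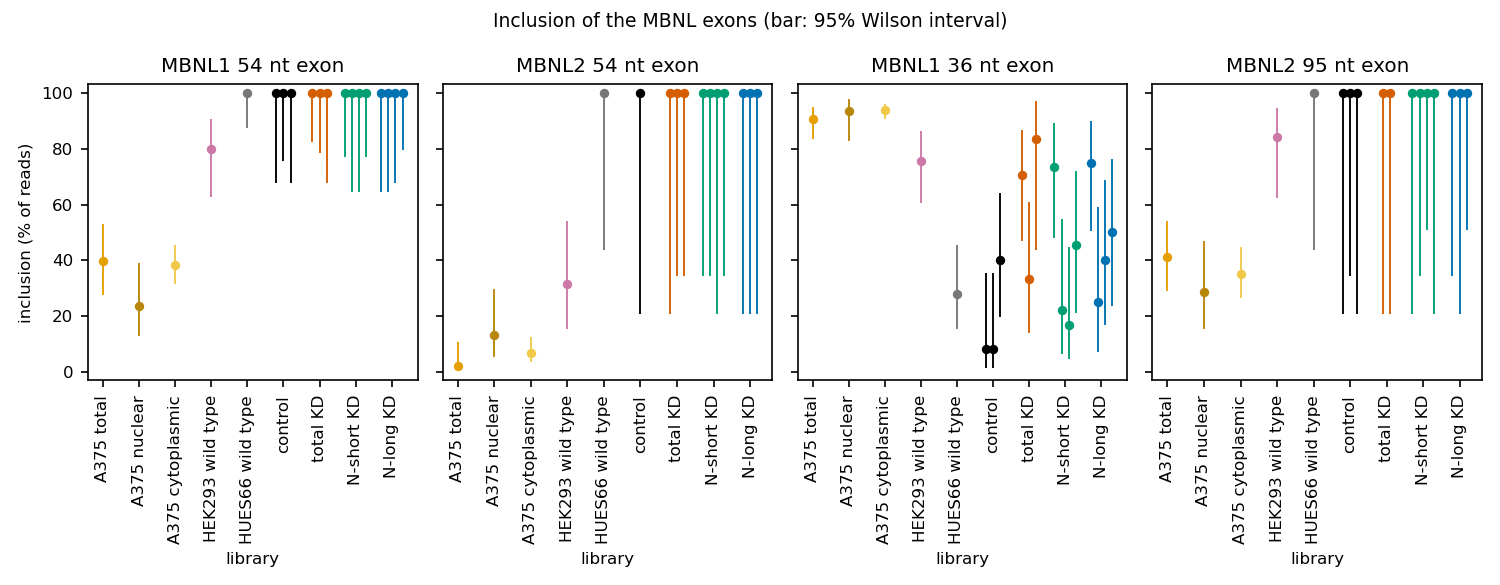
Inclusion of 4 MBNL exons in percent, 1 point per library with a 95% Wilson interval, over A375, HEK293 and HUES66 libraries. The 54 nt and MBNL2 95 nt exons are at 100% in HUES66 and lowest in A375, and the MBNL1 36 nt exon is above 90% in A375 and scattered from 8.33% to 83.3% in treated HUES66.

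The MBNL1 36 nt exon, one of the exons with a GCATG, showed the opposite order. A375 included it in 88 of 97 reads (90.7%, 83.3 to 95.04), HEK293 in 31 of 41 (75.6%, 60.7 to 86.2) and HUES66 wild type in 9 of 32 (28.1%, 15.6 to 45.4). In the treated libraries it rested on 6 to 17 reads each, too few for the test. Controls included it in 1 of 12 reads in 24 hr replicate 2 (8.33%), 1 of 12 at 48 hr (8.33%) and 6 of 15 at 96 hr (40.0%). Total KD had 12 of 17 in 24 hr replicate 1 (70.6%), 4 of 12 at 48 hr (33.3%) and 5 of 6 at 96 hr (83.3%).

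N-short KD included the MBNL1 36 nt exon in 11 of 15 reads, 2 of 9, 2 of 12 and 5 of 11 over the 4 sets, and N-long KD in 12 of 16, 2 of 8, 4 of 10 and 5 of 10. Each knockdown was above the control in every set that held both, at 34.2 ± 13.0 points for total KD (SD over 2 sets), 19.4 ± 11.1 for N-long KD (SD over 3) and 9.23 ± 4.29 for N-short KD (SD over 3), and all share the control libraries. The 3 knockdowns of 24 hr replicate 1, at 70.6% to 75.0%, lay close to each other and above the other knockdown libraries except total KD at 96 hr. HUES66 wild type, of the same library series, was at 28.1%. When exons with a mean of 10 reads were admitted, edgeR gave a log2 odds of 1.74 in total KD (adjusted p 0.777, SE 0.949). N-long KD stood at 1.51 (adjusted p 0.9998, SE 0.869) and N-short KD at 0.97 (adjusted p 1.0, SE 0.867). A difference was therefore not detectable at this depth. The MBNL3 36 nt exon was in all 96 reads of HUES66 at that site, and the MBNL2 exon had no reads in HUES66 and 1 of 34 in A375. The MBNL2 36 nt exon shares its skipping junction (97357636 to 97391321) with the MBNL2 95 nt exon. Its count therefore covers transcripts without the 95 nt exon and is not comparable with that of MBNL1, which ran up to the 95 nt exon.

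QKI proteins differ in their last exons, which set whether the protein stays in the nucleus (QKI-5) or can leave it (QKI-6 and QKI-7). From the last shared splice site (chromosome 6, 163563720), the junction to 163566720 leads to QKI-5, to 163565945 to QKI-6 and to 163564666 to QKI-7. QKI-5 took 87.9% to 93.4% of these reads in the 14 treated libraries, QKI-6 6.16% to 11.4% and QKI-7 0 to 1.66%. By group, QKI-5 was at 90.4% ± 2.25 in control (SD, n = 3), 90.1% ± 0.27 in total KD (SD, n = 3), 90.75% ± 0.91 in N-short KD (SD, n = 4) and 90.1% ± 2.53 in N-long KD (SD, n = 4), differences smaller than the spread between libraries. HUES66 wild type matched them at 91.0% (88.2 to 93.3). A375 was at 81.6% QKI-5 (71.4 to 88.7), 14.5% QKI-6 and 3.95% QKI-7, and HEK293 at 72.9% (66.6 to 78.4), 20.1% and 7.01%. Of HEK293, HUES66 wild type and A375 total RNA, HEK293 had the largest share of QKI-6 and QKI-7. An end made by reading through the last splice site leaves no junction and is not counted here.

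Across the 3 lines, 2 of 12 member exons with at least 20 reads in each differed by 20 points or more, the MBNL1 54 nt and 36 nt exons, against 11.2% of all such exons. Of splice site choices it was 4 of 23 against 11.9%, and 2 of these are the MBNL1 choice just described. The other 2 were in CELF1. The junction from 47478953 to 47482694 took 73.3% of reads at its site in A375, 49.1% in HEK293 and 41.1% in HUES66, and the junction from 47468892 to 47472190 took 27.0%, 49.4% and 52.5%.

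In the edgeR tests CELF1 and CELF2 had no call in any knockdown comparison and several between time points. The 96 hr libraries were compared with those at 48 hr over all 4 conditions, since both times belong to 1 library series. Here 7 of 9 members passed, where 59% of genes did. CELF2 rose by 0.63 (log2, SE 0.087, adjusted p 1.57e-07), from 17.2 to 19.5 normalised CPM at 48 hr to 26.0 to 30.8 at 96 hr. MBNL3 rose by 0.98 (SE 0.19) and MBNL1 by 0.43 (SE 0.10), PTBP1 by 0.35 (SE 0.027), PTBP2 by 0.26 (SE 0.042) and CELF1 by 0.21 (SE 0.034). PTBP3 fell by 0.15 (SE 0.034), and QKI at 0.0090 (SE 0.034) and MBNL2 at -0.70 (SE 0.325, adjusted p 0.0634) did not pass. All 7 calls held in the 14 fits that left out 1 library. Each time was 1 library set, so time and set cannot be told apart, for genes, exons and choices alike. Leaving out 1 library does not separate them.

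For PTBP1 the 96 hr libraries were at 681 to 729 normalised CPM and the 48 hr ones at 540 to 555, without overlap. MBNL1 separated too, at 12.1 to 15.3 against 8.999 to 11.4. Such gaps were not particular to time, since the 24 hr replicates also lay apart for both genes. PTBP1 was at 723 to 749 in replicate 1 and 576 to 606.5 in replicate 2, and MBNL1 at 13.7 to 15.1 and 10.95 to 12.8. CELF1 lay apart as well, at 224 to 238 in replicate 1 and 207 to 214 in replicate 2, and so did PTBP3, at 177 to 190 and 209 to 214. CELF2, PTBP2 and MBNL3 overlapped between these replicates. The sum of the stem cell markers also rose, at 4692 to 5578 CPM at 96 hr against 4022 to 4222 at 48 hr. That of 6 abundant cytoplasmic RNAs fell, at 18780 to 19550 CPM against 21290 to 21910. The melanocyte lineage markers fell too, at 38.7 to 46.3 CPM against 69.1 to 73.6. Their part in the result was not tested.

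Of the members' exons, 4 of 12 passed between 96 hr and 48 hr (16.4% of exons), and of choices 4 of 21 (12.8% of choices). The strongest was a choice in the 3′ UTR of CELF1, downstream of its stop codon. From the site at 47472190, the junction to the proximal acceptor, at the edge of a 105 nt exon (47471998 to 47472102), took 53.7%, 60.2%, 57.1% and 57.7% of reads in control, total KD, N-short KD and N-long KD at 48 hr, and 31.0%, 37.8%, 39.7% and 30.9% at 96 hr. The junction to the distal acceptor (47468892) went from 35.2% to 40.9% at 48 hr to 50% to 65.5% at 96 hr. No library of one time overlapped the other. The log2 odds changed by -1.33 (SE 0.185, adjusted p 1.13e-10) and 1.11 (SE 0.184, adjusted p 1.39e-07), and both held with every library left out in turn. The 24 hr libraries, of other series, lay between or overlapped, at 40.9% to 57.8% and 38.5% to 52.6%. Inclusion of the 105 nt exon as a cassette passed as well (log2 odds -1.39, SE 0.339, adjusted p 0.00304). Its second inclusion junction had 0 reads in all 8 of these libraries, so this call repeats the proximal junction and does not show that the exon was spliced on both sides.

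**Figure D5:**
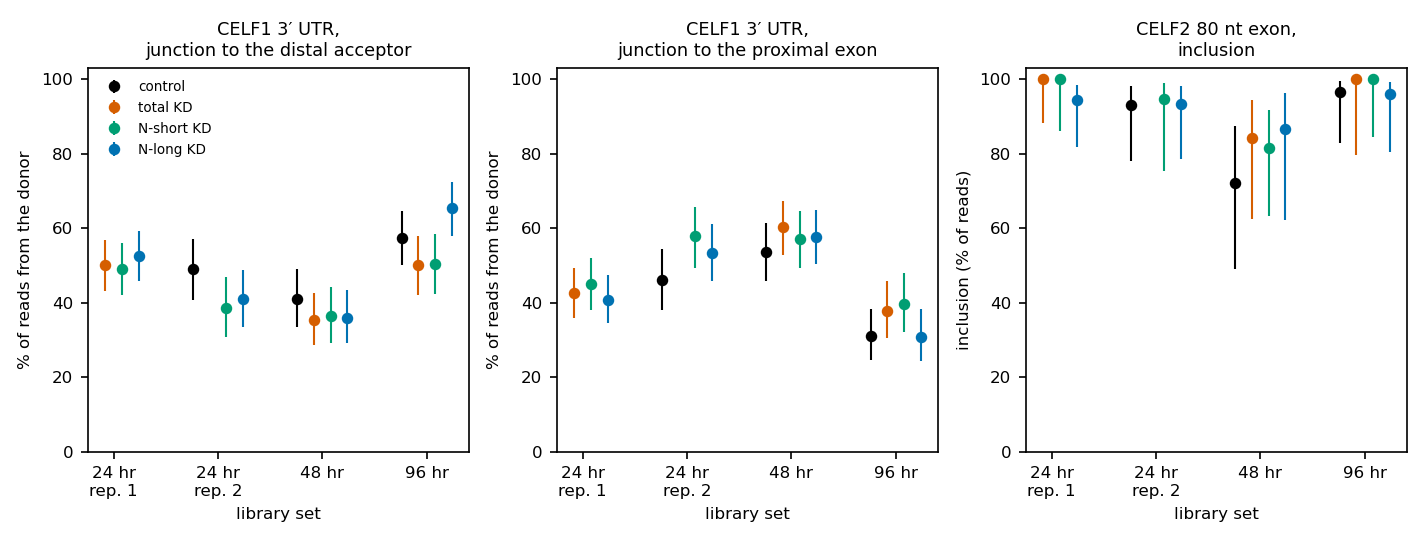
Shares of reads from the CELF1 3′ UTR splice site that go to the distal acceptor (left) and to the proximal acceptor (middle), and inclusion of the CELF2 80 nt exon (right), by library set with 95% Wilson intervals. For CELF1 the 4 libraries at 96 hr lie apart from the 4 at 48 hr in both panels, and the CELF2 exon is lowest at 48 hr, at 72.2% to 86.7%.

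In CELF2, the 80 nt exon (chromosome 10, 11266598 to 11266677, coding) was included in 72.2% to 86.7% of reads at 48 hr and 96.0% to 100% at 96 hr. Its log2 odds rose by 3.28 (SE 0.844, adjusted p 0.00517), and the call held with each library left out. It was at 93.1% to 100% at 24 hr. The CELF2 83 nt exon (11217425 to 11217507, coding) was at 80.8% to 100% at 48 hr and 96.9% to 100% at 96 hr, with a log2 odds of 3.29 (SE 1.11, adjusted p 0.0360). That call was lost without N-long KD at 48 hr (adjusted p 0.0827), without the control at 96 hr (0.428), without N-long KD at 96 hr (0.101) and with limma (0.163). The CELF1 72 nt exon (chromosome 11, 47500861 to 47500932, not coding) went from 7.50% to 13.5% at 48 hr to 14.6% to 33.3% at 96 hr (log2 odds 1.35, SE 0.456, adjusted p 0.0361). It kept its call in 8 of 14 fits without 1 library. It was lost without control (adjusted p 0.0510), N-short KD (0.0921) or N-long KD (0.155) at 48 hr, and without total KD (0.0779), N-short KD (0.0892) or N-long KD (0.187) at 96 hr.

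The remaining choices in CELF2 were skipping junctions of the same regions. The junction from 11257873 to 11270665 took 14.3% to 35.7% of reads at its site at 48 hr and 0 to 6.67% at 96 hr (log2 odds -3.24, SE 1.01, adjusted p 0.0157). It kept its call in 8 of 14 fits without 1 library and reached 0.101 without the control at 48 hr. It was also lost without total KD (adjusted p 0.0552) or N-short KD (0.0649) at 48 hr, and without control (0.0837), total KD (0.0532) or N-short KD (0.0784) at 96 hr. The junction from 11165683 to 11249152 took 0 to 18.5% at 48 hr and 0 to 2.94% at 96 hr (log2 odds -3.28, SE 1.20, adjusted p 0.0485). That one kept its call in 3 of 13 such fits, with adjusted p up to 0.455 without the control at 96 hr.

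The A375 fractions asked where in the cell these transcripts lie, with 1 library per fraction. PTBP2 stood apart from the other members, at 48.6 CPM in the nucleus (43.2 to 54.5) and 11.9 in the cytoplasm (10.5 to 13.5), a ratio of 4.09 (3.44 to 4.86). MBNL3 was at 0.425 (0.176 to 0.888, from 8 and 65 reads), and the other 7 ran from 0.597 for PTBP3 to 1.15 for CELF1. So 2 of 9 members passed a 2-fold limit, where 41.9% of genes did. As a rough check of the fractions, 6 RNAs listed as nuclear summed to 82.1 CPM in the nuclear library and 56.0 in the cytoplasmic one. In each library 4 of these reached 1 CPM and 2 had no reads. The 6 RNAs listed as cytoplasmic summed to 15950 and 31940 CPM. Where each listed RNA lies was not tested.

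Inclusion differed by 10 points or more between the fractions in 3 of 14 member exons with enough reads, against 15.7% of all exons. The MBNL1 54 nt exon was at 23.7% in the nucleus (9 of 38 reads, 13.0 to 39.2) and 38.3% in the cytoplasm (69 of 180, 31.5 to 45.6), intervals that overlap. The MBNL1 95 nt exon differed by -10.9 points (nuclear minus cytoplasmic), with skipping again counted only in transcripts that include the MBNL1 36 nt exon. The PTBP1 57 nt form is the other one counted, at 13.3 points, through the downstream junction it shares with the 78 nt form. By its own junction it was at 1.84% in the nucleus (3 of 163 reads) and 1.89% in the cytoplasm (13 of 687). PTBP1 skipping took 9.82% of reads at the upstream site in the nucleus (16 of 163, 6.13 to 15.4) and 18.3% in the cytoplasm (126 of 687, 15.6 to 21.4). Of choices, 9 of 26 differed by 10 points or more, against 17.7% of all choices. These are not independent, since both MBNL1 junctions from 152445540 and the CELF1 junctions from 47472190 to 47472103 and 47468892 are among them. Nuclear reads were few, such as 34 at that MBNL1 site and 21 at a PTBP3 one. The median difference was 5.02 points in the members and 4.12 over all choices. The widest choice was the CELF1 3′ UTR junction to the proximal acceptor, at 62.0% in the nucleus (31 of 50) and 41.5% in the cytoplasm (100 of 241).

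Other splicing regulators and known targets were counted from lists that were drawn up with earlier results of these data known. Of 26 tissue-restricted regulators and cofactors, 22 were tested, and in total KD only RBFOX2 passed (median log2 change -0.012, against -0.00019 over all genes). None of their 18 tested exons passed in any knockdown. Of 14 tested MBNL target genes, VLDLR, a lipoprotein receptor, rose by 0.31 (SE 0.068, adjusted p 0.00598) and FN1, the matrix protein fibronectin, fell by 0.20 (SE 0.054, adjusted p 0.0473) in total KD. Of their 28 tested exons 1 passed, an FN1 exon of 273 nt that fell (log2 odds -4.03, SE 0.750, adjusted p 0.000839). Over all features, 2.2% of genes and 1.3% of exons passed in total KD. Since the lists were drawn up with earlier results known, these counts are no evidence of an excess.

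Of 20 tested exons in PTBP target genes, 6 passed in total KD, 2 higher and 4 lower (median log2 odds -0.19), where 1.3% of all exons did. This list too was drawn up with earlier results known, so its share beside that of all exons is no evidence of an excess. It names genes, and the 20 are their tested exons, not exons chosen as regulated by PTBP. The 76 nt exons of TPM1, a tropomyosin, moved in opposite directions, at 1.52 (SE 0.155, adjusted p 6.85e-09) and -1.29 (SE 0.153, adjusted p 1.78e-07). They lie close together (63061198 to 63061273 and 63061713 to 63061788), were counted separately and may not be independent. A 111 nt exon of CTTN, an actin-binding protein, stood at -1.93 (SE 0.211, adjusted p 3.18e-08) and an 81 nt exon of ACTN1, an actinin, at 1.896 (SE 0.342, adjusted p 0.000505). In N-long KD 4 of the 20 passed, 2 in each direction (0.49% of exons), in N-short KD 0 did (0.0153%), and N-long against N-short KD gave 2 higher and 1 lower (0.368%). Of the 15 genes, PTBP2 and PKM, a pyruvate kinase, passed in total KD (2.2% of all genes), PKM at -0.12 (SE 0.030, adjusted p 0.0204). The part of PTBP1 or PTBP2 in these exons was not tested.

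In the authors' deposited tables, 72 to 98 events per comparison lie in the members, and 1 passed an adjusted p under 0.05 with a difference of at least 0.1. In the table that holds it, 38 of 45414 events passed (0.0837%). It was an alternative end of a CELF2 exon (chromosome 10, 11314139 to 11314270) in total KD at 96 hr, with a difference of -0.338 (control minus knockdown) and the authors' adjusted p at 0.0440. In the junction reads used here, the longer end, 12 nt further on, had 18 of 18 reads in total KD at 96 hr (82.4 to 100) and 19 of 29 in the control (65.5%, 47.4 to 80.1). Total KD was at 7 of 13 reads at 48 hr, against 8 of 13 in the control, and at 15 of 20 in 24 hr replicate 1, so the difference was seen at 96 hr and not at 48 hr, which was not tested as a difference between times.

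By likeness of log2 CPM over the 19 libraries, among 10105 genes, the gene closest to PTBP1 was TRA2B (Pearson r 0.991), itself a splicing regulator, and that closest to MBNL1 was CASP4 (0.990). CPNE3 was closest to MBNL2 (0.989), SORL1 to PTBP2 (0.986), CDC14B to PTBP3 (0.981), MDK to CELF1 (0.977), UFD1 to CELF2 (0.922) and CRKL to QKI (0.982). MBNL3 was below the level set for this. These values mainly follow the separation of A375 and HEK293 from HUES66, in which 15 of the libraries share 1 line, and are given as a description.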

How the data were processed

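The authors deposited raw counts of spliced reads per junction for each library, without normalization. The submitters' processing notes name STAR 2.7.1, SAMtools 1.9 and hg38. The authors also deposited 9 rMATS tables with inclusion differences on a scale of -1 to 1 (a unit other than counts) and p-values, per the file headers; 69 columns of per-library values in them were not used. The members and lists were chosen with earlier results of these data known.

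Junctions were matched to GENCODE 29. Reads on annotated junctions of 1 gene were summed per gene (93.4% to 94.8% of reads per library). A cassette exon had 2 inclusion junctions and a skipping junction with the same outer ends, up to 1000 nt; inclusion reads were the mean of both. Exons and choices at a 5′ splice site entered the tests from 20 reads in the mean library and at a pooled share of 2% to 98%, which 12 of 40 exons and 21 of 65 choices of the members passed. The 14 treated libraries were fitted together in edgeR 4.0.16 (R 4.3.3, TMM, filterByExpr, quasi-likelihood F-test), with terms for library set and knockdown, inclusion and skipping being paired columns. P-values were adjusted by Benjamini-Hochberg over all features, threshold 0.05. Set serves as the block, since the labels place the 24 hr replicates in different library series; libraries of 1 set deviated together (median residual r 0.545 in 18 pairs, -0.17 in 55 pairs of different sets). Single libraries carry 95% Poisson, exact ratio or Wilson intervals, and a count of 0 allows up to 3 reads; these cover counting error only. Ratios used a pseudocount of 0.5 reads.

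Described exons were those fixed by function (MBNL 54, 36 and 95 nt, PTBP 34 and 78 nt, QKI ends), those that passed in any contrast, and the widest by line (10) or fraction (5); likeness took the closest genes by Pearson r. On simulated data for total KD, a log2 change of 1 was recovered in 90.5% of 200 changed genes (12782 genes), a log2 odds change of 2 in 31.5% of exons (6144 exons) and 21.5% of choices (10810 choices). Alternatives were DESeq2 1.42.0, limma 3.58.1, RLE factors, other read minimums, time point alone, HUES66 wild type as a control and leaving out each library.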

Additional observations from a re-analysis of the deposited data

Results flagged for a closer look

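Of 42 groups of 4 libraries examined, 1 held a library far from the others by Dixon's criterion at 95%, where chance gives about 1 in 20. MBNL3 was at 1.72 normalised CPM in N-short KD at 48 hr, against 3.61 to 3.73 in the other 3 N-short KD libraries, a gap of 0.94 of the range. For MBNL3 the 4 libraries at 48 hr ranged from 1.72 to 2.65 and those at 96 hr from 3.43 to 5.66.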

How the results depend on the processing

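Member calls in total KD were 1 gene, 2 exons and 2 splice site choices. Without the replicate block (a term for time point alone, so that both 24 hr replicates shared 1 term) these fell to 0, 0 and 0. The samples of a set share a library series and deviate together, and of the other member counts the choices at 96 hr against 48 hr went from 4 to 3 under that setting. With limma on log2 ratios the 2 exons and 2 choices of total KD became 0 and 0, and the 4 exons of 96 hr against 48 hr became 2. A minimum of 10 reads raised the N-long KD exons from 0 to 1. With one of 50 reads the 96 hr exons went from 4 to 1. The 4 had means of 24 to 49.9 reads and were no longer tested, so the 1 was another exon. With no filter on low counts, N-long KD and N-long against N-short KD each went from 0 to 1 gene (PTBP2). DESeq2, RLE factors and HUES66 wild type as an added control changed none of these counts.

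With 1 library left out, total KD called 0 to 1 genes, 0 to 2 exons and 0 to 2 choices, and N-long KD 0 to 1, 0 to 1 and 0 to 2. N-long against N-short KD called 0 to 1 genes, 0 exons and 0 choices, and N-short KD 0 of each. 96 hr against 48 hr called 7 to 7 genes, 2 to 4 exons and 2 to 4 choices. The sign changed for 2 values near 0 that never passed. PTBP2 in N-short KD, at 0.0042, was at -0.0074 without the block and at -0.046 to 0.033 with 1 library left out. PTBP1 78 nt exon inclusion in N-long against N-short KD, at -0.015, was at 0.0044 with limma and at -0.088 to 0.070 with 1 library left out. The cause of these changes was not tested. TMM scaling over the 19 libraries multiplied CPM by 0.896 in HEK293 and 1.05 in HUES66 wild type, which raised the 2-fold count of A375 against HUES66 from 5 to 6 and left those of the other lines and fractions at 3, 4 and 2. The MBNL1 54, 36 and 95 nt exons rest on 5 to 18 reads in each treated library, and the MBNL2 exons on fewer.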
